A study of Macaca nemestrina with 58 samples.

Results

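The nutrient solute carriers are membrane proteins that bring sugars, amino acids, small peptides, lactate and related acids into cells or let them out. The genes described here are those of the SLC1A, SLC2A, SLC3A, SLC5A, SLC6A, SLC7A, SLC15A, SLC16A, SLC36A, SLC38A and SLC43A families that have a probe set with a single gene symbol in the array annotation, other than SLC2A1, SLC2A3 and SLC15A2. That rule finds 80 genes with 126 probe sets, of 14132 genes named in this way. Each gene is represented by the brightest of its probe sets, and 54 of the 80 passed the filter on brightness (a log2 mean of at least 5.53), against 11199 of all named genes. The rule itself used names only, but the carriers were chosen with earlier results of these data known.

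The values come from vaginal pinch biopsies of 15 pig-tailed macaques (Macaca nemestrina), read on 58 arrays whose probes were designed for another species, the rhesus macaque. The 9 DMPA animals received depot medroxyprogesterone acetate, an injectable progestin, at doses labelled 0.5, 1.5 and 2.5 without a unit, with 3 animals at each, and gave 9 samples at 2D2 and 8 at 1D4, as the times are labelled. The 6 animals labelled LNG, the oral contraceptive arm, gave 6 samples labelled 7th and 6 labelled 5th, and 3 of these animals are labelled High and 3 Low. The 28 untreated baseline samples, 17 of the DMPA animals and 11 of the LNG animals, came from before treatment, with 10 in the early and 5 in the late follicular phase of the cycle and 4 in the early and 9 in the late luteal phase. The design text places the later biopsies 5 weeks after the first oral dose and 2 weeks after the second DMPA injection, and the labels do not explain the time codes. Strain, age and the meaning of the mark (A-) on 5 of the 12 LNG arrays are not given in the labels. Every later sample is from a treated animal, so the effects of drug, of elapsed time and of an earlier biopsy cannot be told apart. In whole biopsies, fewer cells of a type and less RNA per cell cannot be told apart.

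As background, facilitative carriers such as the SLC2A family let sugars move down their gradient, while sodium-coupled carriers of the SLC5A and SLC6A families use the sodium gradient to concentrate sugars, inositol, amino acids, taurine or creatine inside the cell. Amino acid exchangers of the SLC1A, SLC7A and SLC43A families trade one amino acid for another or carry it across the membrane, and SLC36A, SLC38A and SLC15A members also work at the lysosome, where nutrient supply is sensed. SLC16A carriers move lactate and pyruvate together with protons. In the vagina, the upper squamous epithelial cells are known to be rich in glycogen, whose sugar feeds lactate-producing bacteria.

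Markers of other cell types and of RNA quality moved with treatment, and their values belong beside each result below. The mean log2 level of 11 measured markers of mature squamous epithelium lay between 7.21 and 12.15 at DMPA 2D2, between 7.62 and 13.06 at 1D4, between 7.39 and 13.24 at LNG 7th and between 7.16 and 13.30 at LNG 5th, against 9.35 to 13.36 at baseline. It changed by an average of -3.70 at 2D2, -2.90 at 1D4, -2.56 at 7th and -2.59 at 5th from the animals' own baselines. Of these markers 10 of 11 fell at 2D2, 9 of 11 at 1D4 and 10 of 11 over both LNG times. The mean of 6 columnar epithelium markers was higher by 1.20 at 2D2, in 9 of 9 animals, and by 1.17 at 1D4, in 8 of 8, and 6 of 6 and 5 of 6 of these markers rose. With LNG it was higher by 0.67 at 7th (4 of 6 animals) and 0.27 at 5th (3 of 6), and 0 of 6 markers passed over both times. The stromal markers (fibroblast and smooth muscle) changed by 0.05 at 2D2, 1.35 at 1D4, 1.22 at 7th and 2.06 at 5th, and over both LNG times 4 of 7 fibroblast and 1 of 5 smooth muscle markers rose, against none at either DMPA time. The mean of 8 endothelial markers changed by 0.02 at 2D2, 0.68 at 1D4 (7 of 8 animals higher), 0.92 at 7th (6 of 6) and 0.85 at 5th (5 of 6), and 0, 1 and 6 of the 8 rose at 2D2, at 1D4 and over both LNG times. The mean of 3 basal keratinocyte markers was higher by 0.18 at 2D2 (6 of 9 animals) and 0.19 at 1D4 (6 of 8). It changed by 0.07 at 7th and -0.30 at 5th. Of these markers 2 of 3 rose at 2D2 and at 1D4, and 0 of 3 over both LNG times. Of 8 macrophage and dendritic cell markers 1 rose at 1D4, and of 3 nerve and melanocyte markers 1 rose at 2D2. RNA quality was read from the GAPDH control, as its 3' minus its 5' signal, which was higher than at the own baseline by 0.74 at 2D2 (8 of 9 animals), 0.31 at 1D4, 0.47 at 7th and 0.40 at 5th. Of the samples, 2 stood apart from the rest. The DMPA 2D2 sample of BB0540 had a GAPDH difference of 3.98, where the next highest of all samples was 2.74, and the same reading of the actin control gave 2.55 there, where the next highest was 1.68. The LNG 5th sample of BB4800 had the lowest basal keratinocyte score of all samples, 9.57, where the next lowest was 11.23, and the lowest T and natural killer cell score, 6.84, where the next lowest was 8.17. Its squamous score, 7.16, was also the lowest, and its smooth muscle, endothelial and nerve and melanocyte scores, 12.38, 9.48 and 8.67, were the highest. The carrier calls at 2D2 are given without BB0540 and those over both LNG times without BB4800 below. The changes of the markers and of the listed genes beside the carriers are given only with all animals. The part of these shifts in the carrier changes was not tested, except where a value with a covariate is given.

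Across the family, DMPA was followed by changes in both directions. At 2D2, 10 of the 54 tested carriers rose and 8 fell against the animals' own baseline (limma, adjusted p under 0.05 over all 31624 probe sets tested). Over all 11199 tested genes 17.2% rose and 14.1% fell in the same comparison, so the carriers' shares are near those of any genes. These counts take the brightest probe set of each gene. Among the 10 rises, SLC7A2 has probe sets that passed in both directions. SLC38A10, SLC3A1 and SLC36A1 have other probe sets that did not pass. At 1D4, 6 carriers rose and 10 fell, where 11.7% of all genes rose and 14.1% fell. The counts by class below rest on few genes each and are to be read against these shares. Whether any class differs from all genes was not tested. The median log2 change of the carriers was -0.11 at 2D2, against 0.05 over all genes, and -0.06 at 1D4, against 0.01 over all genes. The comparisons at 2D2 and 1D4 share the baseline samples. In none of the 4 treated groups did the values of any of the 80 carriers lie wholly outside the range of the baseline samples of the same animals. Over all 14132 named genes such a gap was rare too, found in 0.00708% of genes at 2D2, 0.0142% at 1D4, 0.127% at LNG 7th and 0.0212% at LNG 5th. Without BB0540, 15 of the 18 carriers kept their call at 2D2, and SLC2A8, SLC36A1 and SLC7A2 lost it. SLC2A10, SLC5A8, SLC16A13, SLC7A5 and SLC5A10, with 1 probe set each, had the lowest mean levels of the 18, from 6.07 to 6.56. These lie near the array medians of 6.07 to 6.25, so their signals are weak. SLC1A6, called at 1D4, had a mean level of 5.68, close to the filter at 5.53.

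**Figure D1:**
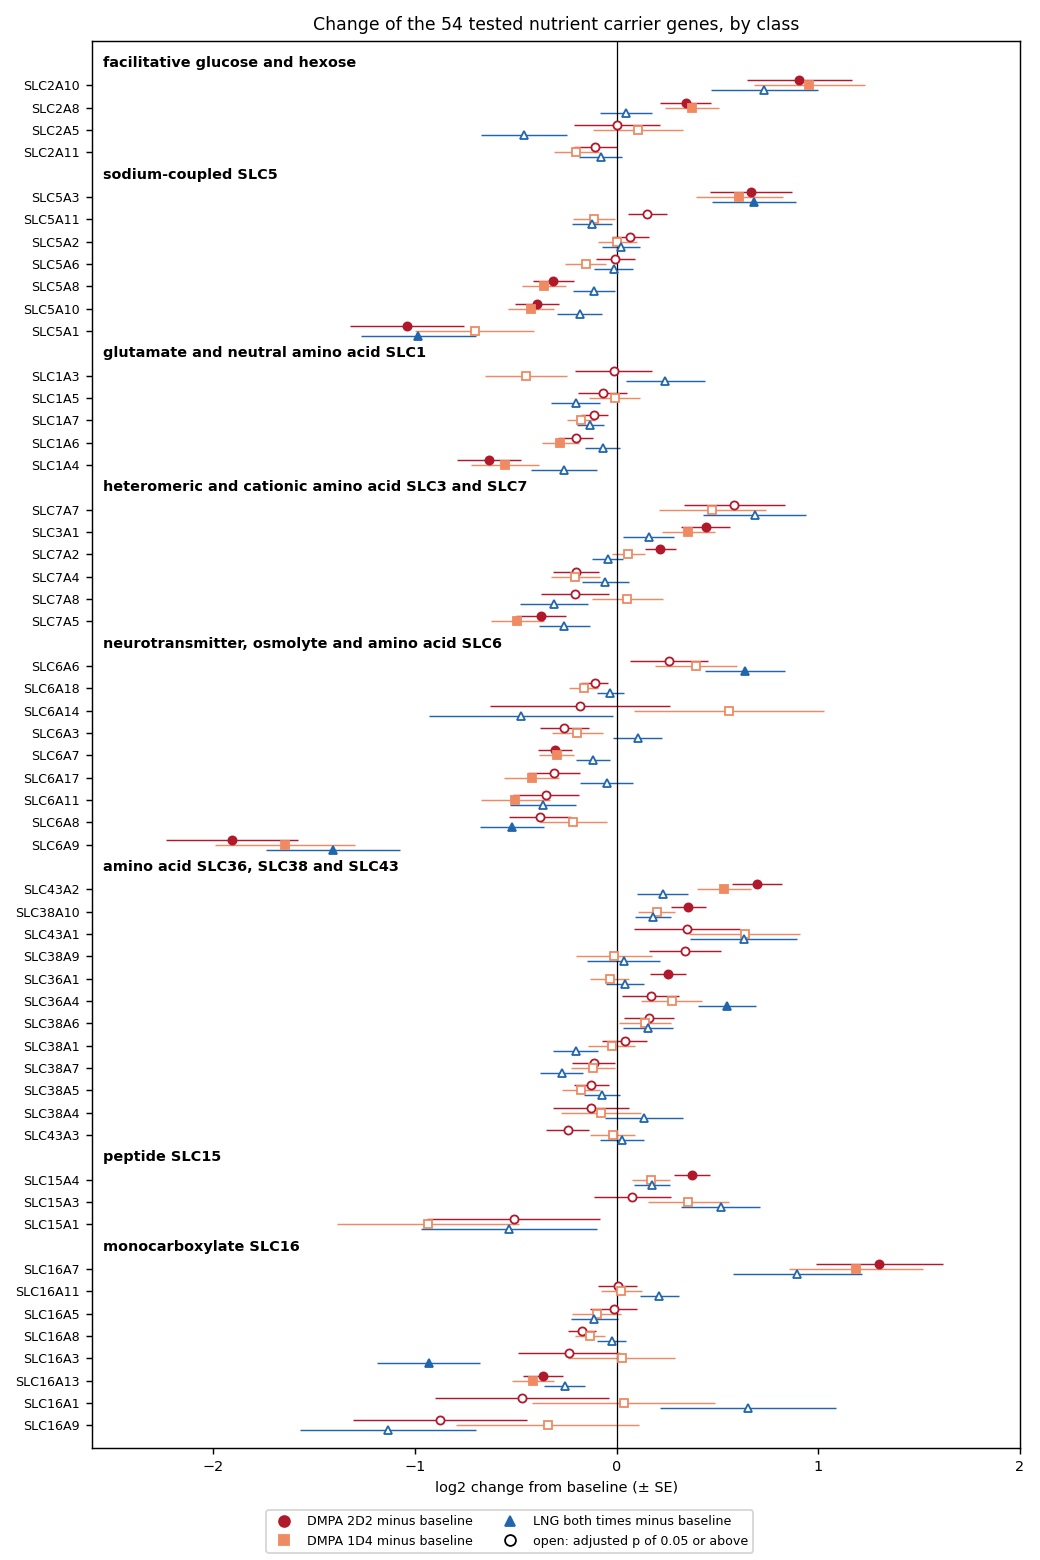
Log2 change (x axis, ± SE) of each of the 54 tested carriers, grouped by class, at DMPA 2D2 (red circles), DMPA 1D4 (orange squares) and LNG over both times (blue triangles), each minus baseline; filled symbols have an adjusted p under 0.05. SLC6A9 lies farthest to the left, at -1.91 at 2D2, and SLC16A7 farthest to the right, at 1.30 at 2D2.

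The gene with the largest change was SLC6A9, which encodes the glycine transporter GlyT1. Its log2 level had a lowest, median and highest value of 7.00, 8.24 and 11.27 at 2D2 (n = 9) and 7.78, 8.33 and 10.15 at 1D4 (n = 8), against 8.46, 10.42 and 11.56 in the baseline samples of these animals (n = 17). At 2D2, 6 of 9 samples lay under the lowest baseline sample, while 1 sample, of animal BB770, lay near the top of the baseline range. SLC6A9 fell by 1.91 ± 0.33 on the log2 scale (SE, 9 animals) at 2D2, or 3.75-fold, in 8 of 9 animals (adjusted p = 0.000205). At 1D4 it fell by 1.64 ± 0.35, in 7 of 8 animals (adjusted p = 0.00389). Without BB0540 the 2D2 change was -1.77 (adjusted p = 0.00202).

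The size of the SLC6A9 change differed widely between animals. At 2D2 it was -2.97 in BB0540, -2.84 in BB405, -2.66 in BB981, -2.62 in BB0499, -2.51 in PHQ1, -2.47 in BB521 and -1.70 in BB108. It was -0.26 in PPi2 and 0.66 in BB770. BB108, PPi2 and BB770, the 3 animals with the changes nearest to 0 or above it, are those of the lowest dose, 0.5. PPi2 and BB770 were also the ones whose squamous marker score changed least, by 0.61 in PPi2 and by -1.09 in BB770, where the other 7 animals had changes between -5.67 and -3.61. The late luteal baseline sample of PPi2 had the lowest squamous score of all baseline samples, 9.35. It also had their highest GAPDH difference, 2.67. The squamous score of PPi2 was 13.01 in its early follicular sample and 11.79 at 2D2, so the 0.61 depends on the late luteal sample. At 1D4 the changes were 0.74 in PPi2 and -0.46 in BB770, and the 6 animals of the higher doses all had -1.19 or lower. The dose groups of 3 were not tested, and dose and the squamous score cannot be told apart here. In the LNG arm the change of SLC6A9 was closest to 0 in BB269 at 7th and in BB4870 at 5th, 0.04 and -0.04, in samples whose squamous score changed by 0.09 and 0.13. Both are animals labelled High. At 7th the labels overlapped, with -1.79, -0.77 and 0.04 in the 3 animals labelled High and -2.70, -2.34 and -0.75 in the 3 labelled Low. At 5th those labelled High had -0.68, -0.43 and -0.04, while those labelled Low had -3.15, -2.47 and -1.65. The squamous score at 5th changed by -1.88, 0.09 and 0.13 in the animals labelled High. In those labelled Low it changed by -5.70, -4.79 and -3.37, and BB4800, whose 5th sample stood apart, is among them. How many of all genes separate the labels in this way was not counted. The labels were not compared by a test.

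**Figure D2:**
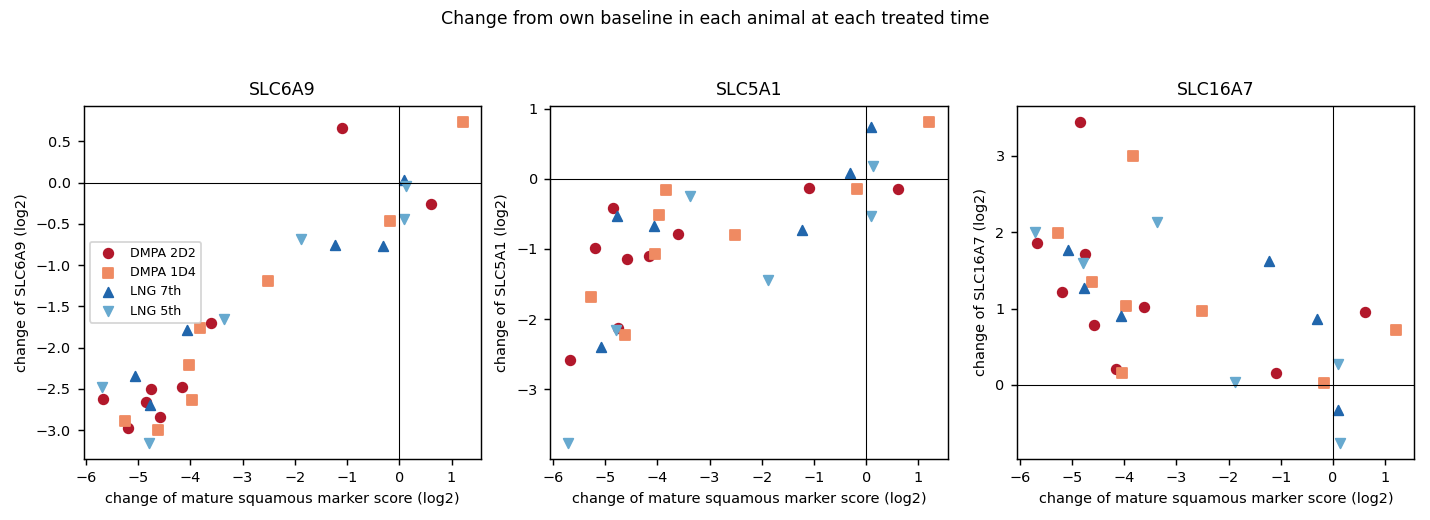
Change of SLC6A9, SLC5A1 and SLC16A7 from the own baseline (y axes, log2) against the change of the mature squamous marker score (x axes, log2) in each animal at DMPA 2D2 (n = 9), DMPA 1D4 (n = 8), LNG 7th (n = 6) and LNG 5th (n = 6). SLC6A9 reaches -3.15 among the samples with a low squamous score and lies between -0.77 and 0.74 in the samples whose score changed least, from -1.09 upward. Points of the same animal and baseline are not independent.

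The other SLC6A carriers of amino acids, osmolytes and transmitters changed less. Of 9 tested members of 15, SLC6A9 included, 2 fell and none rose at 2D2, and 4 fell and none rose at 1D4. SLC6A9 is 1 of the falls at each time. The proline transporter gene SLC6A7 had 6.36, 6.79 and 7.22 at 2D2 as its lowest, median and highest log2 level, against 6.64, 7.15 and 7.64 in the baseline samples of the DMPA animals. The ranges overlap, with 2 of 9 samples under the baseline range, and SLC6A7 fell by 0.31 ± 0.08 (SE) in 7 of 9 animals (adjusted p = 0.00656). At 1D4, SLC6A11, a GABA transporter gene, fell by 0.50 ± 0.17 and SLC6A17, which encodes a vesicular amino acid transporter, by 0.42 ± 0.14, each in 8 of 8 animals. At 2D2 their log2 changes were -0.35 and -0.31, with adjusted p of 0.0984 and 0.0663. The taurine carrier gene SLC6A6 and the creatine carrier gene SLC6A8 had changes of 0.26 and -0.38 at 2D2 that did not pass.

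Among the sodium-coupled SLC5A carriers, 1 of 7 tested members of 11 rose and 3 fell at 2D2. SLC5A1 encodes SGLT1, which takes up glucose with sodium and is best known from the intestine. Its log2 level had a lowest, median and highest value of 6.96, 7.87 and 8.79 at 2D2, against 7.67, 8.92 and 9.63 in the baseline samples of the DMPA animals. At 2D2, 4 of 9 samples lay under the lowest baseline sample and none above the highest. SLC5A1 fell by 1.04 ± 0.28 (SE, n = 9 animals), or 2.06-fold, in 9 of 9 animals (adjusted p = 0.00648), and all 3 of its probe sets fell, by 1.02 to 1.14. At 1D4 its change was -0.70, with an adjusted p of 0.0762.

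SLC5A3, the gene of a sodium-coupled myo-inositol carrier that serves in osmotic balance, moved the other way. Its levels were 7.18, 7.92 and 9.05 at 2D2, against 6.45, 7.29 and 8.33 in the baseline samples of the DMPA animals, with 3 of 9 samples above the baseline range. It rose by 0.67 ± 0.20 (SE) at 2D2 in 7 of 9 animals (adjusted p = 0.0147) and by 0.61 ± 0.22 at 1D4 in 7 of 8 (adjusted p = 0.0384). Without animal BB521, whose change of 2.11 was the largest, the 2D2 call was lost (log2 change 0.53). SLC5A10, a mannose and fructose carrier gene, had levels of 5.77, 6.21 and 6.49 at 2D2, against 6.22, 6.51 and 7.37 in the baseline samples, and 5 of 9 samples were under the baseline range. It fell by 0.39 ± 0.11 in 9 of 9 animals (adjusted p = 0.00788). SLC5A8, which carries lactate and short-chain fatty acids with sodium, had 5.48, 5.85 and 6.32 at 2D2, against 5.53, 6.22 and 7.00, and fell by 0.31 ± 0.10 in 8 of 9 animals (adjusted p = 0.0215). The 2D2 call of SLC5A8 was lost without BB0499 or without BB981.

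Of the facilitative hexose carriers (SLC2A), 2 of 4 tested members of 8 rose at 2D2 and none fell. SLC2A10 encodes GLUT10, whose loss causes arterial tortuosity syndrome in humans. Its log2 level had a lowest, median and highest value of 5.78, 6.86 and 7.70 at 2D2 and 6.07, 6.83 and 7.37 at 1D4, against 3.76, 6.06 and 7.22 in the baseline samples of the DMPA animals. The baseline spread was wide (SD 1.06, against 0.64 at 2D2), and only 2 of 9 samples at 2D2 lay above the baseline range. SLC2A10 rose by 0.91 ± 0.26 (SE) at 2D2, or 1.87-fold, in 8 of 9 animals (adjusted p = 0.00989) and by 0.96 ± 0.28 at 1D4 in 8 of 8 (adjusted p = 0.0145). SLC2A8, an intracellular hexose carrier gene, had levels of 7.05, 7.64 and 8.75 at 2D2, against 6.89, 7.51 and 8.16, and rose by 0.34 ± 0.13 in 6 of 9 animals (adjusted p = 0.0386). The largest change at 2D2 was 1.62, in BB0499, and the 2D2 call was lost without any 1 of 5 animals, BB0499 among them (log2 change 0.18 without it). SLC2A5, the fructose carrier gene, and SLC2A11 had changes of 0.00 and -0.11 at 2D2 that did not pass. Dimmer probe sets of both genes did pass at 1 time each, that of SLC2A5 with -0.24 at 2D2 (adjusted p = 0.0321) and that of SLC2A11 with -0.28 at 1D4 (adjusted p = 0.0117), so their readings differ between probe sets.

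**Figure D3:**
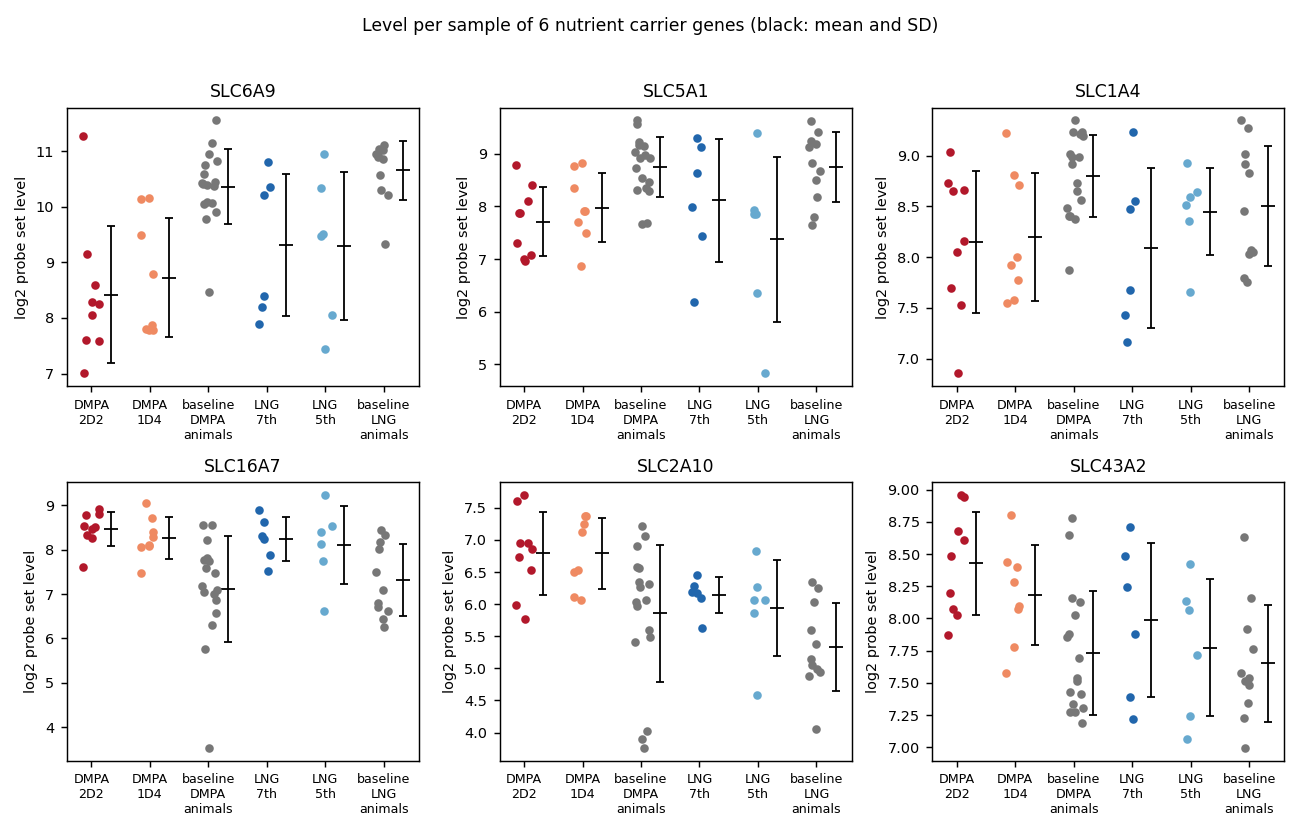
Log2 level (y axes) per sample of 6 carriers at DMPA 2D2 (n = 9), DMPA 1D4 (n = 8), baseline of the DMPA animals (n = 17), LNG 7th (n = 6), LNG 5th (n = 6) and baseline of the LNG animals (n = 11), with mean and SD in black. SLC6A9 averaged 8.42 at DMPA 2D2 against 10.37 in the baseline samples of these animals, and SLC16A7 averaged 8.46 against 7.12; the groups overlap in every panel.

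Monocarboxylate carriers (SLC16A) held the largest rise. Of 8 tested members of 10, SLC16A7 rose and SLC16A13 fell at 2D2. SLC16A7 encodes MCT2, a carrier of lactate and pyruvate with high affinity. Its lowest, median and highest log2 levels were 7.60, 8.50 and 8.91 at 2D2 and 7.47, 8.20 and 9.04 at 1D4, against 3.54, 7.17 and 8.56 in the baseline samples of the DMPA animals. The lowest baseline value, 3.54, came from animal BB981, and 3 of 9 samples at 2D2 lay above the highest baseline sample. SLC16A7 rose by 1.30 ± 0.32 (SE) at 2D2, or 2.47-fold, in 9 of 9 animals (adjusted p = 0.00304), and its 2 probe sets rose by 1.22 and 1.30. The rise was 3.45 in BB981, 1.86 in BB0499 and 1.72 in PHQ1, and it was 0.15 in BB770. With any 1 animal left out the 2D2 change lay between 1.02 and 1.45 and kept its call. At 1D4 the change was 1.19 ± 0.33, in 8 of 8 animals (adjusted p = 0.0127), and this call was lost without BB0499.

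SLC16A13 had levels of 5.43, 6.23 and 6.91 at 2D2, against 5.88, 6.44 and 7.13 in the baseline samples of the DMPA animals. It fell by 0.36 ± 0.10 (SE) in 7 of 9 animals (adjusted p = 0.00728). The lactate carrier genes SLC16A1 (MCT1) and SLC16A3 (MCT4) had changes of -0.47 and -0.24 at 2D2 that did not pass. SLC16A9 had -0.88 with an adjusted p of 0.12. SLC16A5 had -0.02 at its brightest probe set, while its other probe set passed with -0.35 (adjusted p = 0.0218).

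Among the amino acid carriers of the SLC1A family, all 5 tested members of 6 had a change below 0 at 2D2, and 1 of them passed. A change below 0 was common, with 32 of the 54 carriers and 4969 of all 11199 genes. The change of SLC1A3 was -0.01 at its brightest probe set and 0.07 at the other. SLC1A4 encodes ASCT1, an exchanger of serine, alanine and cysteine. Its levels were 6.86, 8.16 and 9.04 at 2D2, against 7.88, 8.92 and 9.35 in the baseline samples of the DMPA animals, with 3 of 9 samples under the baseline range. SLC1A4 fell by 0.63 ± 0.16 (SE) at 2D2 in 9 of 9 animals (adjusted p = 0.00385) and by 0.55 ± 0.17 at 1D4 in 6 of 8 (adjusted p = 0.0185). Its 4 probe sets fell by 0.54 to 0.92 at 2D2. The glutamate transporter gene SLC1A6 fell at 1D4, by 0.28 ± 0.09, and had -0.20 with an adjusted p of 0.0737 at 2D2. The glutamine exchanger gene SLC1A5 (ASCT2) had -0.07 at 2D2.

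Of the 6 tested SLC3A and SLC7A members of 12, 2 rose and 1 fell at 2D2. SLC7A5 encodes LAT1, which carries large neutral amino acids together with the heavy chain of SLC3A2, a gene not analysed here. Its levels were 5.54, 6.14 and 6.65 at 2D2, against 5.68, 6.48 and 7.50 in the baseline samples of the DMPA animals. It fell by 0.38 ± 0.13 (SE) at 2D2 in 8 of 9 animals (adjusted p = 0.0234) and by 0.49 ± 0.13 at 1D4 in 7 of 8 (adjusted p = 0.0101). Its 2D2 call was lost without BB0499, BB405 or BB981.

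SLC3A1, the heavy chain of the cystine carrier, had levels of 6.86, 7.35 and 7.61 at 2D2, against 6.13, 6.80 and 7.25, with 5 of 9 samples above the baseline range. It rose by 0.44 ± 0.12 (SE) in 9 of 9 animals (adjusted p = 0.00814), while its other probe set had -0.08 and did not pass. The direction of SLC7A2, which encodes the arginine and lysine carrier CAT2, depends on the probe set. The brightest of 5 had levels of 8.93, 9.15 and 9.40 at 2D2, against 8.59, 9.04 and 9.23, and rose by 0.22 ± 0.08 in 8 of 9 animals (adjusted p = 0.0314). Another rose by 0.48, while 2 fell by 0.96 and 0.99, with adjusted p of 0.00306 and 0.000826, and the fifth had 0.22 and did not pass. The 2 that fell also passed at 1D4, with -0.79 and -0.77 (adjusted p = 0.0214 and 0.0123), and 1 of them over both LNG times, with -0.90 (adjusted p = 0.012), where the brightest had 0.06 and -0.04. SLC7A2 has no single direction here.

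**Figure D4:**
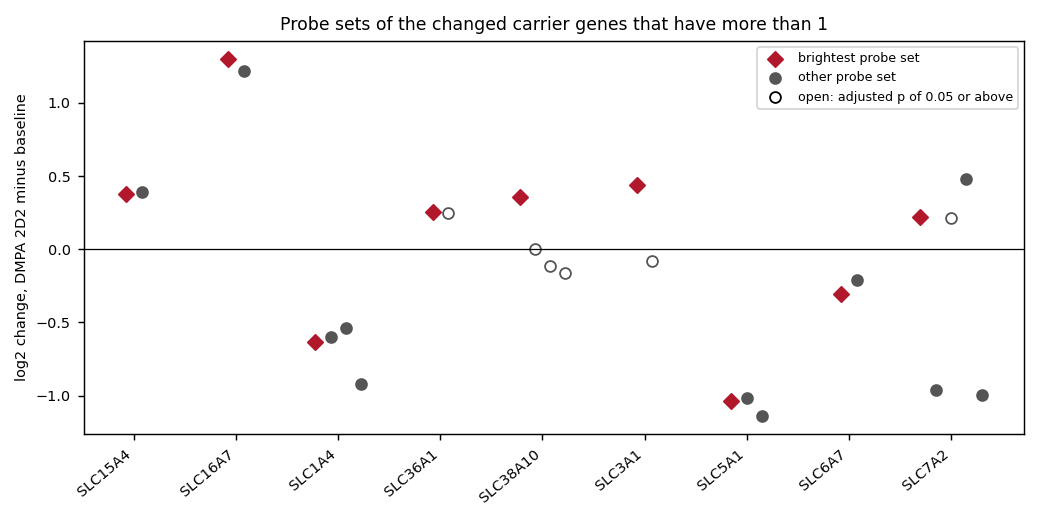
Log2 change at DMPA 2D2 minus baseline (y axis) of each probe set of the 9 carriers that passed at 2D2 and have over 1 probe set past the filter; red diamonds are the brightest probe sets, grey circles the others, and open symbols have an adjusted p of 0.05 or above. In 5 of the 9 genes all probe sets passed in 1 direction, in 3 another probe set did not pass, and SLC7A2 has probe sets that passed in both directions.

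The SLC36A, SLC38A and SLC43A carriers had 3 rises and no fall among 12 tested members of 15 at 2D2. SLC43A2, which encodes the large neutral amino acid carrier LAT4, had levels of 7.87, 8.48 and 8.96 at 2D2 and 7.58, 8.19 and 8.80 at 1D4, against 7.19, 7.54 and 8.78 in the baseline samples of the DMPA animals. The ranges overlap, and 2 of 9 samples at 2D2 were above the baseline range. SLC43A2 rose by 0.70 ± 0.13 (SE) at 2D2, or 1.62-fold, in 9 of 9 animals (adjusted p = 0.000287) and by 0.53 ± 0.13 at 1D4 in 7 of 8 (adjusted p = 0.00718). SLC38A10 had 9.22, 9.45 and 10.17 at 2D2, against 8.64, 9.30 and 9.65, and rose by 0.36 ± 0.09 in 9 of 9 animals (adjusted p = 0.00334), while its other 3 probe sets had changes between -0.16 and 0.00 that did not pass. SLC36A1, a proton-coupled amino acid carrier gene of the lysosome and cell surface, had 7.75, 8.32 and 8.82 at 2D2, against 7.54, 8.10 and 8.58, and rose by 0.25 ± 0.09 in 7 of 9 animals (adjusted p = 0.0333). The call of SLC36A1 was lost under 9 of 21 other settings.

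In the peptide carrier family SLC15A, 1 of 3 tested members rose. SLC15A4 encodes a carrier of histidine and small peptides in the lysosome and endosome of immune cells, among others. Its levels were 10.06, 10.32 and 10.79 at 2D2, against 9.40, 9.98 and 10.61 in the baseline samples of the DMPA animals. It rose by 0.38 ± 0.09 (SE) in 8 of 9 animals (adjusted p = 0.00262), and its 2 probe sets rose by 0.38 and 0.39. SLC15A1, the intestinal peptide carrier PEPT1, had -0.51 and SLC15A3 had 0.08, and neither passed.

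Between the 2 DMPA times no carrier differed in limma (0 of 54, where 0% of all genes passed). At an unadjusted p under 0.05, where 5.53% of all genes lay, SLC36A1 and SLC5A11 differed (named after their values were seen), both higher at 2D2 than at 1D4, by 0.29 and 0.26. With any 1 animal left out, SLC6A9, SLC2A10, SLC43A2, SLC5A10, SLC16A13 and SLC7A5 kept their 1D4 calls, and the other 10 calls at 1D4 were lost without at least 1 animal. At 2D2 such losses were limited to SLC2A8, SLC36A1, SLC5A3, SLC5A8, SLC7A2 and SLC7A5. With the stromal markers as a covariate all 18 calls at 2D2 were kept and all 16 calls at 1D4 were lost, although 12 of these 16 changes were not smaller by more than 1.5-fold on the log2 scale. At 1D4 SLC43A2 then had 0.54, against 0.53 without the covariate, with an adjusted p of 0.0553. SLC5A3 had 0.61 in both fits (adjusted p = 0.131 with the covariate), SLC1A4 -0.58, against -0.55 (adjusted p = 0.0847), and SLC6A9 -1.43, against -1.64 (adjusted p = 0.0512). Smaller with the covariate were SLC2A10, 0.52 against 0.96, and SLC2A8, 0.20 against 0.38. Of all 31624 probe sets, 184 passed at 1D4 with the covariate.

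With the GAPDH 3' minus 5' difference as a covariate all 18 calls at 2D2 were lost, as were the calls of all 31624 probe sets, and 13 of the 16 at 1D4. At 2D2, 6 of the 18 changes were not smaller by more than 1.5-fold, among them SLC3A1 with 0.47, against 0.44 without the covariate (adjusted p = 0.4), SLC1A4 with -0.55, against -0.63 (adjusted p = 0.427), SLC36A1 with 0.22, against 0.25, and SLC5A3 with 0.52, against 0.67. At 1D4, 15 of the 16 were not smaller by more than that. Under that covariate the 2D2 change of SLC6A9 was -0.63 (adjusted p = 0.518), that of SLC16A7 0.57 (adjusted p = 0.666), that of SLC5A1 -0.30 (adjusted p = 0.818) and that of SLC43A2 0.54 (adjusted p = 0.374). SLC7A5, SLC5A8, SLC16A13 and SLC6A7 then had -0.07, -0.05, -0.12 and -0.07 at 2D2, and SLC2A8 had 0.10. RNA quality and treatment moved together in these samples and cannot be told apart.

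The LNG arm asks the same question of a combined oral contraceptive. Over both times, 3 of 54 carriers rose and 4 fell, where 5.93% of all genes rose and 8.29% fell. The median of the carriers was -0.05, against -0.03 over all genes. At 7th and at 5th alone no carrier passed in limma, where 0% of all genes passed at either time. At an unadjusted p under 0.05 there were 16 of 54 carriers at 7th and 13 at 5th, where 25.4% and 24.3% of all genes lay, and the smallest adjusted p were 0.0598 and 0.0544. The 7th and 5th times did not differ in any carrier, with 0 of 54 passing (0% of all genes) and none at an unadjusted p under 0.05, where 2.81% of all genes lay.

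SLC6A9 was again the carrier with the largest called change. Its log2 levels were 7.90, 9.31 and 10.80 at 7th and 7.45, 9.49 and 10.95 at 5th as lowest, median and highest of 6, against 9.33, 10.89 and 11.12 in the 11 baseline samples of these animals. At 7th 3 of 6 samples, and at 5th 2 of 6, lay under the baseline range. Over both times SLC6A9 fell by 1.41 ± 0.33 (SE), or 2.65-fold, in 6 of 6 animals (adjusted p = 0.0122). SLC5A1 had 6.19, 8.32 and 9.30 at 7th and 4.83, 7.86 and 9.40 at 5th, against 7.64, 8.83 and 9.62, and fell by 0.98 ± 0.29 in 4 of 6 animals (adjusted p = 0.0245). Its lowest samples at both times were those of BB4800, with changes of -2.40 and -3.76, and without BB4800 the change of SLC5A1 was -0.53 (adjusted p = 0.287). SLC5A3 rose by 0.68 ± 0.21 in 5 of 6 animals (adjusted p = 0.0297).

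SLC16A3 encodes MCT4, which exports lactate from cells with high glycolysis. Its levels were 6.92, 8.18 and 8.75 at 7th and 6.89, 7.90 and 8.74 at 5th, against 7.28, 8.99 and 10.35 in the baseline samples of the LNG animals. At each time 1 of 6 samples lay under the baseline range. SLC16A3 fell by 0.93 ± 0.26 (SE), or 1.91-fold, in 6 of 6 animals when both times of an animal were averaged (adjusted p = 0.0194), and its 3 probe sets fell by 0.43 to 0.93. The creatine carrier gene SLC6A8 fell by 0.52 ± 0.16 in 6 of 6 animals (adjusted p = 0.0291), and at 7th 5 of 6 samples lay under the baseline range. The taurine carrier gene SLC6A6 rose by 0.64 ± 0.20 and SLC36A4, a proton-coupled amino acid carrier gene, by 0.55 ± 0.15, each in 6 of 6 animals (adjusted p = 0.0319 and 0.0174). All 7 LNG calls were lost without BB173, and likewise without BB4800, with the stromal covariate or with the GAPDH covariate. SLC16A3, SLC6A6 and SLC6A8 also lost their calls without the arrays marked (A-). With no term for the animal these genes and SLC36A4 lost theirs.

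None of the 7 changed sign in these settings. Without BB4800, whose 5th sample stood apart, SLC6A9 had -1.19 (adjusted p = 0.132), SLC16A3 -0.74 (adjusted p = 0.153), SLC5A3 0.57 (adjusted p = 0.186) and SLC36A4 0.44 (adjusted p = 0.149). SLC6A6 had 0.59 and SLC6A8 -0.37 without it. Without BB173 the change of SLC6A9 was -1.08, that of SLC5A1 -0.91 and that of SLC16A3 -0.85, with adjusted p of 0.0686, 0.0743 and 0.0696. With the stromal covariate 5 of the 7 changes were not smaller by more than 1.5-fold on the log2 scale: SLC5A3 kept 0.68, and SLC6A9 had -1.16, SLC16A3 -0.80, SLC5A1 -0.70 and SLC36A4 0.40. SLC6A6 and SLC6A8 were smaller, at 0.39 and -0.28. With the GAPDH covariate 3 of the 7 were not smaller by more than that, with 0.59 for SLC5A3, 0.46 for SLC36A4 and -0.62 for SLC16A3, while SLC6A9 had -0.65. Adjusted p lay between 0.336 and 0.65 with the stromal covariate and between 0.491 and 0.625 with the GAPDH covariate, and no probe set of the 31624 passed with either.

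SLC6A9, SLC5A1 and SLC5A3 passed in the same direction in the LNG arm and at DMPA 2D2, which is 42.9% of the 7 LNG genes and 16.7% of the 18 genes at 2D2. Over all genes the same shares were 58% of 1592 and 26.4% of 3500. The arms share no animal. The test of the difference between the DMPA and the LNG change found no carrier (0 of 54, with 0% of all genes), and 3 had an unadjusted p under 0.05, where 6.48% of all genes lay. For SLC6A9 the difference was -0.37 with a 95% interval from -1.25 to 0.51, for SLC5A1 0.11 (-0.63 to 0.86) and for SLC5A3 -0.04 (-0.59 to 0.50). For SLC16A3, chosen for its value, it was 0.83 (0.16 to 1.50), with an adjusted p of 0.769. For SLC16A7, whose LNG change was 0.90 with an adjusted p of 0.0578, the difference was 0.35 (-0.49 to 1.19).

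Across the untreated cycle no carrier passed at its brightest probe set. In the luteal minus follicular comparison 0 of 54 passed, where 2.33% of all genes rose and 0.982% fell. At an unadjusted p under 0.05, 10 carriers were higher and 7 lower, where 13.8% of all genes were higher and 13.5% lower. A second probe set of SLC36A4 passed, with 0.58 (adjusted p = 0.0424), where the brightest had 0.42 (adjusted p = 0.0897). Of the macrophage and dendritic cell markers 3 of 8 rose in this comparison, and of the endothelial markers 1 of 8. The 4 with the smallest p were named after their values were seen. SLC15A4 had a difference of 0.30 ± 0.08 (SE, adjusted p = 0.0644), SLC38A9, an arginine-sensing protein of the lysosome, 0.60 ± 0.17 (adjusted p = 0.0683), SLC43A1, the gene of the carrier LAT3, 0.67 ± 0.21 (adjusted p = 0.0838) and SLC7A8, the gene of LAT2, -0.42 ± 0.13 (adjusted p = 0.0847). SLC15A4 averaged 9.96 ± 0.32 (SD, n = 10) in the early follicular, 9.74 ± 0.16 (n = 5) in the late follicular, 10.15 ± 0.12 (n = 4) in the early luteal and 10.08 ± 0.28 (n = 9) in the late luteal phase.

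**Figure D5:**
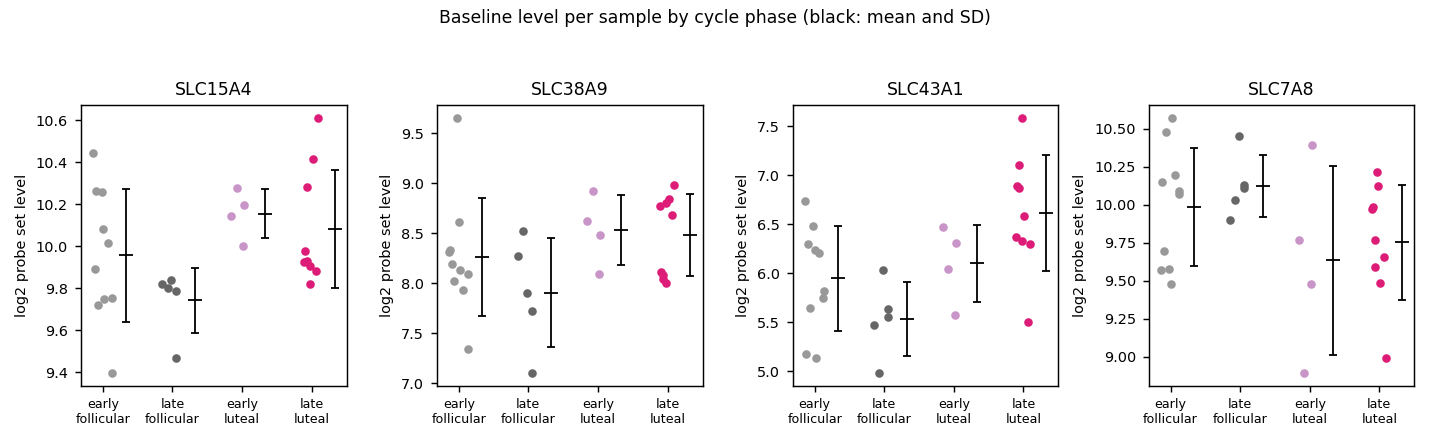
Baseline log2 levels (y axes) of the 4 carriers with the smallest p in the luteal minus follicular comparison, by cycle phase (n = 10, 5, 4 and 9 from left to right), with mean and SD in black. SLC43A1 averaged 5.54 in the late follicular and 6.61 in the late luteal samples, which overlap. The SLC15A4 values of the late follicular samples reach up to 9.84. No carrier passed between the late follicular and early luteal phases in limma (smallest adjusted p = 0.465).

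SLC6A9 averaged 10.54 ± 0.44 (SD) in the early follicular, 10.98 ± 0.15 in the late follicular, 10.63 ± 0.62 in the early luteal and 10.07 ± 0.77 in the late luteal phase. Its luteal minus follicular difference was -0.40 (adjusted p = 0.302), smaller than its changes after DMPA or LNG. For SLC16A7 the luteal minus follicular difference was 0.91 ± 0.31 (SE, adjusted p = 0.106). No carrier passed between neighbouring phases in limma: 0 in late minus early follicular, 0 in early luteal minus late follicular and 0 in late minus early luteal, each with 0% of all genes. At an unadjusted p under 0.05 there were 4, 5 and 4 carriers in these comparisons, where 4.72%, 8.38% and 8.52% of all genes lay. Over the phases the stromal score averaged 8.53 in the early follicular, 8.19 in the late follicular, 8.24 in the early luteal and 9.84 in the late luteal samples.

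Genes that work beside the carriers were read from 2 lists, with all animals included, BB0540 and BB4800 among them. Of 15 tested partners and first users of the carried nutrients, 4 rose and 5 fell at 2D2, 1 rose and 4 fell at 1D4, and 3 fell over both LNG times. Over all genes 17.2% rose and 14.1% fell at 2D2, and 11.7% and 14.1% at 1D4. Over both LNG times these shares were 5.93% and 8.29%. Whether the lists differ from all genes was not tested. ARG1, which encodes arginase, fell by 4.70 ± 0.78 (SE) at 2D2 and by 3.56 ± 0.79 with LNG. HK2, the hexokinase that traps glucose in the cell, fell by 2.38 ± 0.57 at 2D2 and by 1.76 ± 0.58 with LNG, and LDHA, which makes lactate, fell by 0.42 ± 0.13 at 2D2. BCAT2 and BCAT1, transaminases of branched-chain amino acids, rose by 0.61 ± 0.13 and 0.54 ± 0.14 at 2D2. TXNIP, which is known to restrain glucose uptake, rose by 0.86 ± 0.26.

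Of 17 tested genes of the amino acid response and of nutrient sensing, 2 rose and 4 fell at 2D2, 3 fell at 1D4, and 1 rose and 3 fell with LNG. The shares over all genes were again 17.2% and 14.1% at 2D2, 11.7% and 14.1% at 1D4, and 5.93% and 8.29% with LNG. PHGDH, the first enzyme of serine synthesis, fell by 0.91 ± 0.27 (SE) at 2D2 and by 0.84 ± 0.27 with LNG. SHMT2, which turns serine into glycine in mitochondria, fell by 0.58 ± 0.19 at 2D2 and by 0.64 ± 0.20 with LNG. VLDLR and CEBPG fell by 0.59 ± 0.20 and 0.36 ± 0.10 at 2D2. LAMTOR1 and RPTOR, parts of the lysosomal nutrient-sensing machinery around mTORC1, rose by 0.26 ± 0.08 and 0.21 ± 0.07. In the luteal minus follicular comparison 1 gene of each list fell, the creatine kinase gene CKB by 1.05 ± 0.14 and RRAGD, a GTPase gene of nutrient sensing, by 0.58 ± 0.12. Over all genes 0.982% fell in this comparison.

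The other 26 carriers were too dim to be tested: SLC16A10, SLC16A4, SLC1A2, SLC2A13, SLC2A2, SLC2A4, SLC2A9, SLC36A3, SLC38A11, SLC38A3, SLC5A12, SLC5A4, SLC5A7, SLC5A9, SLC6A12, SLC6A15, SLC6A16, SLC6A2, SLC6A20, SLC6A5, SLC7A1, SLC7A11, SLC7A13, SLC7A14, SLC7A3 and SLC7A9.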

How the data were processed

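The authors deposited log2 values, 1 column per array, between 1.37 and 14.57, with array medians from 6.07 to 6.25. Affy and Partek are named in the submitters' processing notes, without versions, and the labels' protocols name NuGEN amplification and biotin labelling. The background correction and normalization are not given in the sources. The late follicular array marked as a duplicate and its partner were averaged (SD of their difference 0.465), which left 57 samples. Of 52707 probe sets that are not controls, the 31624 at or above the 40th percentile of the mean were tested. The number of arrays limits the precision.

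All tests used limma 3.58.1 (R 4.3.3, statmod 1.5.0) with a term for each animal and Benjamini-Hochberg adjustment over all tested probe sets. The treated comparisons used all 57 samples with the baseline phases pooled (38 residual degrees of freedom), the phases the 28 baseline samples (10). The pairing comes from the animal labels: the correlation of samples of 1 animal was 0.246 in the treated fit and 0.32 in the baseline fit. Labels do not say that samples of an animal and phase were separate tissue, so p values measure the spread between these samples. The tests were tried on simulated data with independent noise for each probe set. That simulation had no shift of RNA quality or cell types with treatment, so it cannot speak for the calls under such shifts.

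The carriers and lists were chosen with earlier results of these data known. Any carrier past the threshold may be named. Levels are given for up to 4 carriers of a class with the largest changes among those that passed at 2D2, and for up to 3 that passed with LNG, and up to 6 genes of a list with the smallest p at 2D2 are named. The alternatives tried were array centring, brightness filters, probe set choice, the animal term, array weights, covariates for GAPDH and stroma, separate baseline phases, the duplicate and leaving out each animal. The LNG arrays marked (A-) and a late luteal sample of PPi2 were left out in alternatives chosen after seeing the data.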

Additional observations from a re-analysis of the deposited data

Results flagged for a closer look

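SLC2A8 at DMPA 2D2 had 1 animal far from the others: the change from the own baseline was 1.62 in BB0499, the next highest was 0.62 and the lowest -0.25. SLC7A2 at DMPA 2D2 had the same animal at the other end, with a change of -0.17 in BB0499, where the next lowest was 0.13 and the highest 0.39. Of 41 groups of changes examined in this way, chance would be likely to mark about 1 in 20.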

How the results depend on the processing

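None of the 41 calls turned its direction under a setting tried. Of 835 recomputed values of these calls, 679 kept their call and 156 lost it, and no call held under every setting. At 2D2, 11 of the 18 calls were lost with the GAPDH covariate alone and 7 under other settings too, 6 of them on leaving out 1 animal. The counts of carriers that passed moved as follows, and the cause was not tested. At 2D2 (18) it was 0 with the GAPDH covariate and between 13 and 21 without 1 animal. At 1D4 (16) it was 9 with a filter at the 60th percentile, where 31 carriers were tested, 3 with the GAPDH covariate, 0 with the stromal covariate and 8 to 17 without 1 animal (8 without BB0499 or BB981, 9 without PHQ1), and 19 without the late luteal sample of PPi2. At LNG 5th (0) it was 2 with that filter, 1 with 1 probe set per gene, 1 with the animal as a random replicate block, 3 with array weights, 3 with separate phases, 0 to 5 without 1 animal (5 without BB4870, 2 without BB269), 5 without the (A-) arrays and 2 without that sample. At LNG 7th (0) it was 1 with the filter, 1 with the random replicate block, 8 with array weights, 4 with separate phases, 0 to 2 without 1 animal (2 without BB269) and 2 without that sample. For both LNG times (7) it was 11 with array weights, 0 with either covariate and 0 to 9 without 1 animal (0 without BB173 or BB4800, 3 without BB537). The DMPA minus LNG difference (0) gave 9 with no replicate block. Luteal minus follicular (0) gave 4 with the random replicate block, 1 with array weights, 1 with all samples in the fit and 0 to 2 without 1 animal (2 without BB405, 1 without BB981). The other comparisons had 0 under each alternative run.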
